A study of Mus musculus with 22 samples.

Results

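MEPM cells, the primary mesenchyme of the embryonic palatal shelves, were stimulated with PDGF for 4 hr with or without a MEK inhibitor, and the transcript levels of the 2 conditions were set side by side. The cells came from wild-type C57B/6 embryos at E13.5, were used at their second passage and were held overnight in 0.1% FBS before the ligand was added. In the first condition they received PDGFA at 30 ng/mL. In the second they were also given PD325901 (PD, at 1 uM), which blocks the kinases MEK1 and MEK2, from 30 min before the ligand. Each condition was pooled by the authors into 1 FPKM value per gene (fragments per kilobase of transcript, scaled to the mapped fragments of the library), from 3 samples without and 2 samples with PD, and independent litters served for the sets of replicates. Of the 23286 entries of the table, 11879 had an FPKM above 1 in either condition and were compared by the plain ratio of the values. With pooled values there was no spread between replicates to compare a difference with and no test was made, and sequencing depth cannot be read from such values. A gene is here called lower or higher by size alone, at a ratio of 1.5-fold or more, which is 0.585 on the log2 scale. Just inside the minimum, 117 entries held 21 lower and 36 higher ones, and just outside it 137 entries held 26 and 58. A fall in the level of a transcript per cell and a loss of the cells that carry it cannot be told apart in bulk samples.

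PDGF receptors dimerize on binding their ligand and recruit adaptors that load RAS with GTP. RAS starts a relay of the kinases RAF, MEK and ERK, and ERK enters the nucleus, where it phosphorylates ETS factors and other regulators of transcription. Among the genes that ERK turns on are its own brakes, the dual-specificity phosphatases and the Sprouty and Spred proteins, so that their mRNA levels are widely read as a gauge of the activity of the pathway. PI3K is the other main branch below the PDGF receptor, and LY294002 (LY) is an inhibitor of it.

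Among the largest falls under PD were brakes on the RAS-ERK pathway and transcription factors of the early response, and *Artn*, *Rspo2*, *Wnt11* and *Hgf*, genes of secreted ligands, were among the 20 largest rises. Of the 11879 genes, 1137 were lower with PD (9.57%) and 1418 were higher (11.9%). The median log2 ratio was 0.00, with quartiles of -0.28 and 0.30. Since FPKM is scaled to the library, a median near 0 does not show that typical transcripts per cell were unchanged. At 2-fold, 366 genes were lower and 551 higher, and at 10-fold 30 were lower and 26 higher. Most of the calls are therefore of modest size. The share of calls depended on the level of the transcript. In the decile of genes with the lowest mean FPKM, from 0.538 to 1.96, the median log2 ratio was 0.27 and 35.3% of genes were higher, against 3.54% in the highest decile, above 63.5 FPKM, whose median was -0.23. This tilt with level is a property of the whole comparison and it is given again below beside the groups of growth and metabolic genes. With FPKM of at least 5 in either condition, 800 genes were lower and 734 higher, so that the excess of higher genes rested on weakly expressed ones. With the median of each decile set to 0, a step added after the data were seen, 1199 were lower and 1168 higher.

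**Figure D1:**
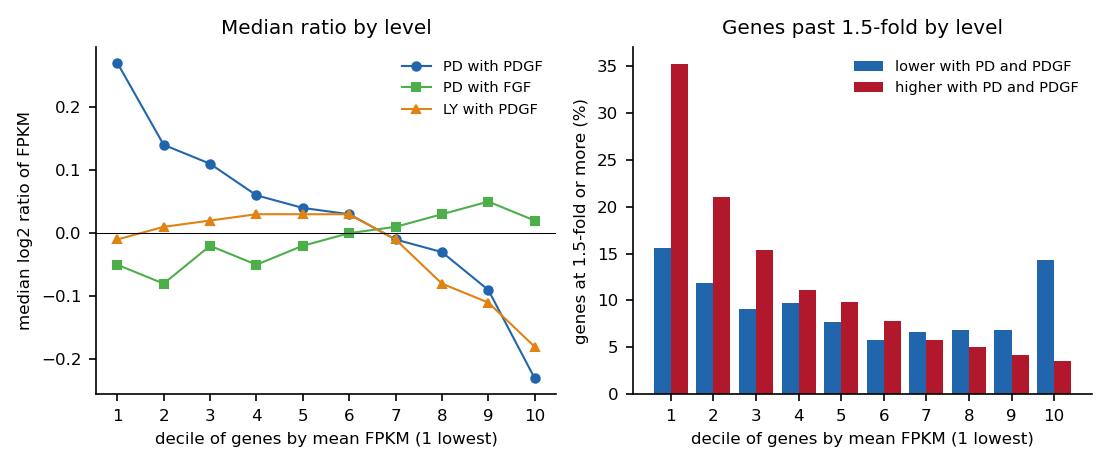
Left, median log2 ratio of FPKM in each decile of the genes ordered by their mean FPKM with PDGF and with PDGF and PD, for PD with PDGF (circles), PD with FGF (squares) and LY with PDGF (triangles). Right, percent of genes at least 1.5-fold lower (blue) or higher (red) with PD and PDGF in the same deciles, where higher genes go from 35.3% in the lowest decile to 3.54% in the highest.

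The labels were checked against markers. All 11 markers of mesenchyme exceeded 1 FPKM, with the intermediate filament gene *Vim* at 2249.9 FPKM with PDGF and 1599.8 with PD. Of 10 epithelial markers 9 were at or below 1 FPKM in both conditions, as were 6 of 8 endothelial, 6 of 7 blood cell and macrophage and 7 of 9 muscle markers. The summed level of the epithelial list was 4.77 FPKM with PDGF and 2.55 with PD, of the endothelial list 4.15 and 6.61, of the blood list 1.97 and 1.9, of the muscle list 22.5 and 17.3, and of the list of neurons and glia 83.7 and 106. The last sum was nearly all from *Stmn2* and *Tubb3*, while the other 8 markers of that list included 7 at or below 1 FPKM. Whether these cells had a part in any result was not tested. A further property of the table touches single genes. In 155 entries both ligand-alone values lie at least 1.5-fold outside all 8 inhibitor conditions, whichever ligand, inhibitor or time. By that definition every 1 of them is called here, 81 as lower and 74 as higher. *Col1a1*, at 3776 FPKM with PD, is listed at 0 with PDGF alone, as it is with FGF alone, and no fold is given. *Thbs1* is likewise listed at 0 with PDGF alone and at 1382 FPKM with PD. Both are counted as higher, and in the lists they enter at the limit of 5 on the log2 scale. Without the 155 entries, 1056 genes were lower and 1344 higher. Genes named below that belong to them are said to be of this kind.

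**Figure D2:**
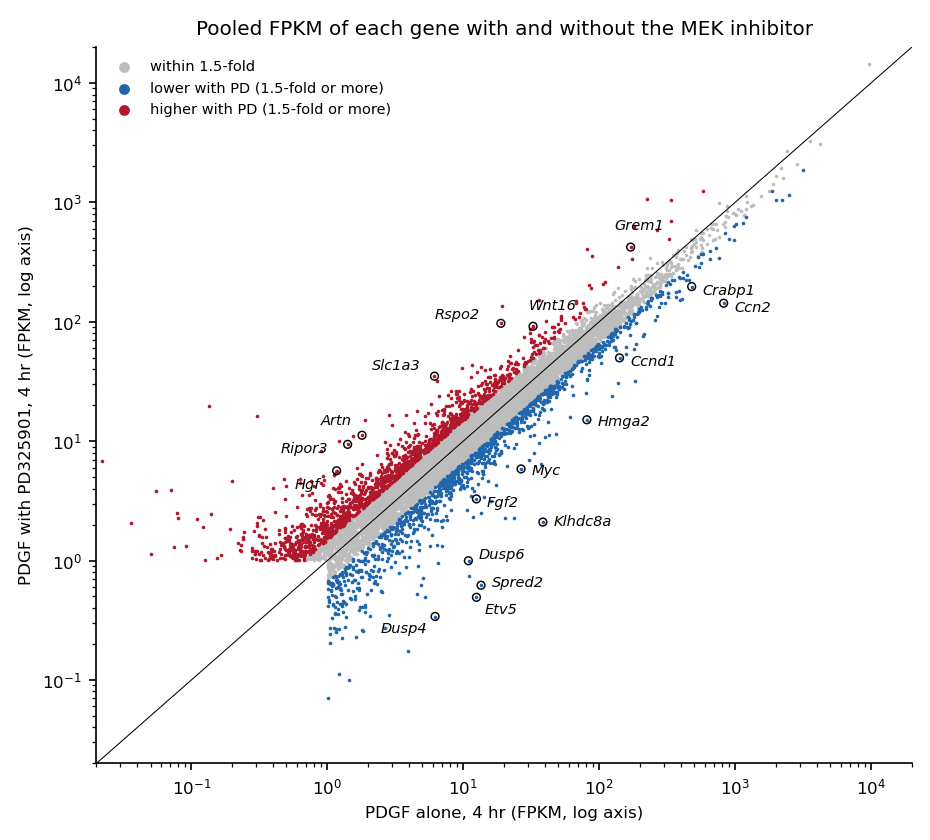
FPKM of each gene with PDGF alone (x) and with PDGF and PD (y) at 4 hr, both on log axes, for genes above 0 in both, with genes at least 1.5-fold lower in blue and higher in red. *Etv5*, *Spred2*, *Klhdc8a*, *Dusp4* and *Dusp6* lie furthest below the diagonal among the genes circled, and *Ripor3* and *Artn* furthest above it.

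The brakes of the pathway were lower. Of 5 measured genes of ERK-directed phosphatases 4 were lower and none was higher, with a median log2 ratio of -1.46. *Dusp6*, whose product holds ERK in the cytoplasm and strips its phosphates, was at 10.9 FPKM with PDGF and 0.996 with PD. *Dusp4*, a nuclear ERK phosphatase, was at 6.2 and 0.34 FPKM, a log2 ratio of -4.19 that became -2.43 with 1 FPKM added to both values. *Dusp5*, also nuclear, was at 3.21 and 1.16 FPKM and *Dusp9* at 4.04 and 1.9. *Dusp7*, at 16.7 and 11.6 FPKM, missed the size rule with a log2 ratio of -0.52. *Dusp7* was the most abundant of the family with PD on this scale, which allows for transcript length. Of 13 measured genes of Sprouty, Spred and other feedback inhibitors 10 were lower and none was higher, with a median log2 ratio of -1.30. *Spred2*, which keeps RAF from being activated by RAS, went from 13.5 to 0.621 FPKM. *Spred1* fell less, from 15.2 to 4.62 FPKM, and *Spred3* from 6.45 to 2.63. The order of the levels of these paralogs was thus turned, *Spred2* being above *Spred3* with PDGF and below it with PD. *Spry1*, which blocks signals from receptor tyrosine kinases upstream of RAS, went from 16.1 to 3.13 FPKM and *Spry2* from 11.3 to 3.45. *Il17rd*, the membrane inhibitor also known as Sef, went from 5.92 to 2.73 FPKM. *Errfi1*, an inhibitor of the EGF receptor kinase, went from 6.64 to 4.29 FPKM, a log2 ratio of -0.63.

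A set of 10 genes whose expression reads MEK activity in human tumours was also followed in these mouse cells, and it overlaps the lists above. Of the 10, 9 were lower and the median log2 ratio was -2.26. *Etv5* had the largest fall of the set and, by plain ratio, of all genes of at least 5 FPKM, at 12.5 FPKM with PDGF and 0.492 with PD, a 25.4-fold fall. With 1 FPKM added to both values its log2 ratio went from -4.66 to -3.18, and *Klhdc8a*, at 38.5 and 2.1 FPKM, lay lower at -3.67. *Etv4*, another ETS factor of the PEA3 group, which acts below FGF receptors in branching organs and the limb, was at 5.71 and 1.33 FPKM. *Phlda1*, a pleckstrin-homology protein, was at 13.4 and 2.5 FPKM, and *Epha2*, an ephrin receptor, at 48.5 and 11.5 FPKM.

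**Figure D3:**
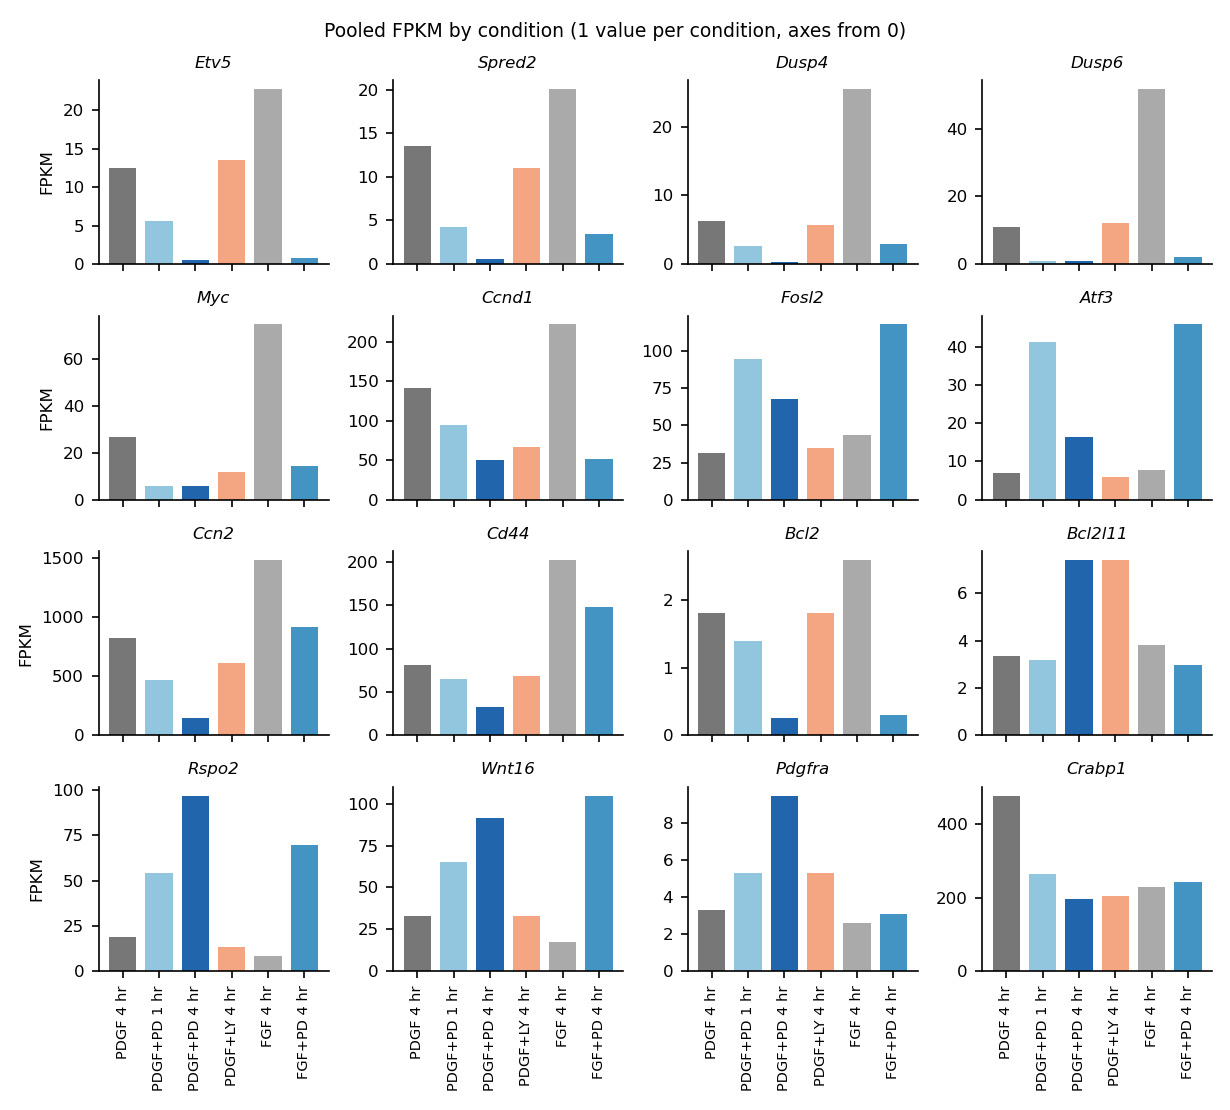
Pooled FPKM of 16 genes in 6 conditions, each bar 1 condition: PDGF alone, PDGF with PD at 1 and 4 hr, PDGF with LY, FGF alone and FGF with PD. *Etv5*, *Spred2*, *Dusp4* and *Dusp6* were near 0 with PD at 4 hr but not with LY, *Bcl2l11* was raised with PDGF and either inhibitor, and *Rspo2* and *Wnt16* were raised with PD under both ligands.

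The promoters of the brakes and early factors that were lower were searched for sites near the start of transcription, and 4 of those with a match are shown. These genes were picked for being lower, so their common direction is set by the choice. Letters were searched on both strands in the 250 bases before each start in RefSeq (GRCm38.p6): GGAAGT for ETS factors, TGACGTCA for CREB, TGANTCA for AP-1, and the CArG box, at which SRF binds. Of 24 lower members of the feedback, ETS, AP-1 and human signature lists, 17 had a promoter in the table and 8 of these held at least 1 such site. The ETS letters were in 7 of them, the CREB letters in 3, a CArG box in 1 and the AP-1 letters in none. The share of all genes with at least 1 such site was not calculated. The 120 bases before the start are printed 5′ to 3′ with the matched letters in capitals, for *Dusp5* on the plus strand of chr19:53529025-53529144, *Spred2* on the plus strand of chr11:19924322-19924441, *Epha2* on the plus strand of chr4:141301101-141301220, and the second of 3 starts of *Maff*, on the plus strand of chr15:79347400-79347519.
Dusp5: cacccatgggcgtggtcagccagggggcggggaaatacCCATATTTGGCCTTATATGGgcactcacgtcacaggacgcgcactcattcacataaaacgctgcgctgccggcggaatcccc
Spred2: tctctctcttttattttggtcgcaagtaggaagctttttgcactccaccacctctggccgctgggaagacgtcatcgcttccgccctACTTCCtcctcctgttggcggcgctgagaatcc
Epha2: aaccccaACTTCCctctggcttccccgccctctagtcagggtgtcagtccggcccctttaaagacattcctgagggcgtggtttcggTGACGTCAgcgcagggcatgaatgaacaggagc
Maff: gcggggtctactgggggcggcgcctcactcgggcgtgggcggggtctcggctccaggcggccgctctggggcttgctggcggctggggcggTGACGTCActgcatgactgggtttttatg
*Dusp5* carries a pair of CArG boxes side by side, *Spred2* the ETS letters on the minus strand 33 to 28 bases before the start, and *Epha2* and *Maff* the CREB letters at 33 to 26 and 29 to 22 bases before it. These are matches of letters and not measured sites. The shares over all genes are given without a test. A gene counts if any of its starts held the letters, whereas the shares of all promoters count each start alone. The latter are therefore not a like background for the gene shares. ETS letters were in 25.9% of the 861 lower genes with a promoter, in 22.2% of 1079 higher genes, in 26.5% of 7477 genes past neither limit and in 19.7% of all 32851 promoters of the table. CArG boxes were in 2.21% of lower, 1.85% of higher and 1.28% of other genes and in 1.47% of all promoters, AP-1 letters in 7.43%, 4.26%, 4.99% and 6.75%, and CREB letters in 3.6%, 2.69%, 3.21% and 1.55%.

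Transcription factors of the early response split into genes that were lower and genes that were higher with PD. Of 9 measured AP-1 subunits 4 were lower and 3 higher. *Fos* was at 2.48 FPKM with PDGF and 0.56 with PD, *Fosl1* at 4.6 and 0.528, and *Maff* at 11.8 and 2.32. *Fosl1* encodes Fra-1, an AP-1 subunit whose protein ERK also stabilizes. *Fosl2*, encoding its relative Fra-2, moved the other way, from 31.4 to 68.1 FPKM, and *Jun* from 33.3 to 55.8. *Atf3*, a stress-induced partner of Jun, was at 7.07 FPKM with PDGF and 16.5 with PD. Summed FPKM cannot show how much AP-1 the cells held. The *Fos* and *Fosl1* transcripts were below those of *Fosl2* and *Jun* with PDGF alone as well, and with PD the gap was wider. Of 17 other immediate early genes 5 were lower and none higher. *Zfp36l2*, a factor of mRNA decay, went from 30.4 to 6.97 FPKM, *Ier2* from 18.3 to 7.6, and *Nr4a1*, an orphan nuclear receptor, from 9.54 to 4.49. *Srf* and *Klf4*, at log2 ratios of -0.54 and -0.39, did not pass. Of 12 ETS factors 4 were lower, which besides *Etv4* and *Etv5* were *Elk3*, at 29.2 and 13.4 FPKM, and *Erf*, a repressor that ERK expels from the nucleus, at 26.3 and 17.1. *Ets1* and *Ets2*, at log2 ratios of -0.51 and 0.38, stayed within the limits.

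The kinases of the relay itself changed little. Of 27 genes from RAS to ERK 24 stayed within 1.5-fold and the median log2 ratio was -0.01. *Braf* was higher, at 6.22 and 11.6 FPKM, as was *Araf*, at 46.7 and 74.5, both encoding RAF kinases, and *Hras* was lower, at 62.8 and 40.5. The phosphatases of the parallel kinases JNK and p38 did not follow those of ERK. Of 5, *Dusp10* was higher, at 4.54 and 8.65 FPKM, and *Dusp8* was higher, at 7.76 and 12.3, while *Dusp1*, an early gene that acts on all 3 kinases, was lower, at 35.6 and 19.8. Among 7 kinases and exchange factors, most of them named in the study from these same samples and so no independent evidence, *Plk3*, *Trib1* and *Vav3* were lower, at log2 ratios of -2.23, -1.08 and -1.06, and 4 stayed within 1.5-fold.

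Several genes of growth and division were lower, while most members of the lists stayed within 1.5-fold. *Myc*, the growth-promoting factor that ERK both induces and stabilizes, went from 26.6 to 5.85 FPKM, and *Mxd1*, its antagonist, from 4.25 to 6.6. *Ccnd1*, the D cyclin that carries growth factor signals into the cell cycle, went from 141 to 49.8 FPKM, *Ccne2* from 3.44 to 1.5 and *Cdk6* from 6.2 to 3.37. *Cdkn1b*, encoding the CDK inhibitor p27, was higher, at 14.3 and 27.3 FPKM. Genes of DNA replication moved a little, and those past 1.5-fold moved in 1 direction. Of 26, 8 were lower and none higher, with a median log2 ratio of -0.43. The largest fall was that of the licensing factor *Cdc6*, from 1.36 to 0.755 FPKM, near the minimum. With 1 FPKM added to both values its log2 ratio went from -0.85 to -0.43. *Rrm1* and *Rfc4* had ratios slightly above 0, at 0.06 and 0.09. Of 22 genes of G2 and mitosis 2 were lower, *Cdc20* and *Aurka*, a share near that of all genes, and the median was -0.31. Of 29 genes of ribosome biogenesis 13 were lower and none higher, with a median of -0.55. *Rrs1*, needed to assemble the large subunit, was at 25.5 and 11.9 FPKM, *Nolc1*, a nucleolar phosphoprotein, at 21 and 11.8, and *Polr1b*, a subunit of RNA polymerase I, at 7.06 and 4.03. With the tilt by level set to 0, the medians of these 3 lists were -0.52 for replication, -0.36 for mitosis and -0.52 for ribosome biogenesis. *Hmga2* and *Hmga1*, chromatin proteins abundant in embryonic and dividing cells, went from 81.1 to 15.1 and from 33.4 to 13.9 FPKM.

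Of 13 measured genes of the BCL2 family, regulators of cell death, 4 were lower and 2 higher, beside 9.57% and 11.9% of all genes. *Bcl2*, which protects mitochondria, was at 1.82 FPKM with PDGF and 0.256 with PD, and *Mcl1*, another protector, at 65.1 and 41.8. Of the genes of the BH3-only proteins that oppose them, *Bmf* was higher, at 1.74 and 5.34 FPKM, and *Bcl2l11*, encoding Bim, at 3.35 and 7.38. Low levels weigh on some of these ratios. With 1 FPKM added to both values, the log2 ratio of *Bcl2* went from -2.83 to -1.17 and that of *Bmf* from 1.62 to 1.21. *Bid*, a BH3-only protein, was lower, at 17.1 and 6.39 FPKM, and so was the pore-forming *Bax*, at 345 and 223. *Morrbid*, a long noncoding RNA that lies beside *Bcl2l11* and holds it down in mouse blood cells, was at 23.6 FPKM with PDGF and 2.26 with PD, and it is of the kind whose ligand-alone values lie apart.

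Ligands and receptors changed in both directions. Of 16 measured genes of PDGF and FGF ligands and receptors 5 were lower and 4 higher. *Pdgfra*, the receptor that binds PDGFA, was at 3.3 FPKM with PDGF and 9.47 with PD, and *Pdgfrb*, the more abundant receptor on this scale, moved the other way, from 74.5 to 46.6. *Fgf2*, of the kind whose ligand-alone values lie apart, was at 12.5 and 3.28 FPKM. *Fgf7* and *Fgf10*, which signal from mesenchyme to epithelium, were lower, at 33.5 and 17 FPKM and at 2.42 and 1.25. *Fgf9* was higher, at 1.01 and 2.34 FPKM. Of 6 measured genes of the EGF family *Hbegf* was lower, at 15.7 and 6.56 FPKM, and *Tgfa*, at 1.42 and 0.564, and the receptor *Egfr* narrowly missed the limit at a log2 ratio of -0.57. *Artn*, *Hgf* and *Gdnf*, ligands of the RET coreceptor GFRA3, of MET and of the RET coreceptor GFRA1, were higher. *Artn* was at 1.8 FPKM with PDGF and 11.2 with PD, *Hgf* at 1.17 and 5.65, and *Gdnf* at 0.881 and 2.38. The insulin-like ligand *Igf2*, among the most abundant transcripts, was lower at 1868 and 1236 FPKM, a log2 ratio of -0.60 beside the median of -0.23 for the highest decile.

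Wnt ligands were mostly higher with PD. Of 11 measured genes of Wnt ligands and R-spondins 6 were higher and 1 was lower, and the median log2 ratio was 0.71. *Rspo2*, whose product spares Wnt receptors from destruction, went from 18.9 to 97 FPKM, and *Wnt16* from 32.6 to 91.6. *Wnt11* was at 0.929 FPKM with PDGF and 5.15 with PD, and *Wnt10b* at 2.49 and 6.39. *Rspo3*, a relative of *Rspo2*, was the lower one, at 10.1 and 4.98 FPKM. Of 24 receptors, antagonists and targets of Wnt 3 were higher and 3 lower, shares near those of all genes, and the median log2 ratio was 0.03. The higher ones were *Axin2*, at 1.08 and 2.68 FPKM, *Rnf43*, at 1.79 and 5.14, and *Nkd1*, at 3.55 and 7.05, all of them negative regulators of the pathway. *Fzd4*, a Wnt receptor, was lower, at 2.97 and 1.21 FPKM. Antagonists and ligands of BMP gave 4 higher and 1 lower gene of 20. *Grem1*, a secreted BMP antagonist, was at 170.2 FPKM with PDGF and 422 with PD, *Nog*, another, at 5.49 and 8.41, and *Bmp3* at 5.93 and 13.6. The BMP targets *Id1*, *Smad7* and *Bambi* were lower, at log2 ratios of -0.94, -0.95 and -0.90, and 8 of the 12 genes of that list stayed within 1.5-fold.

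**Figure D4:**
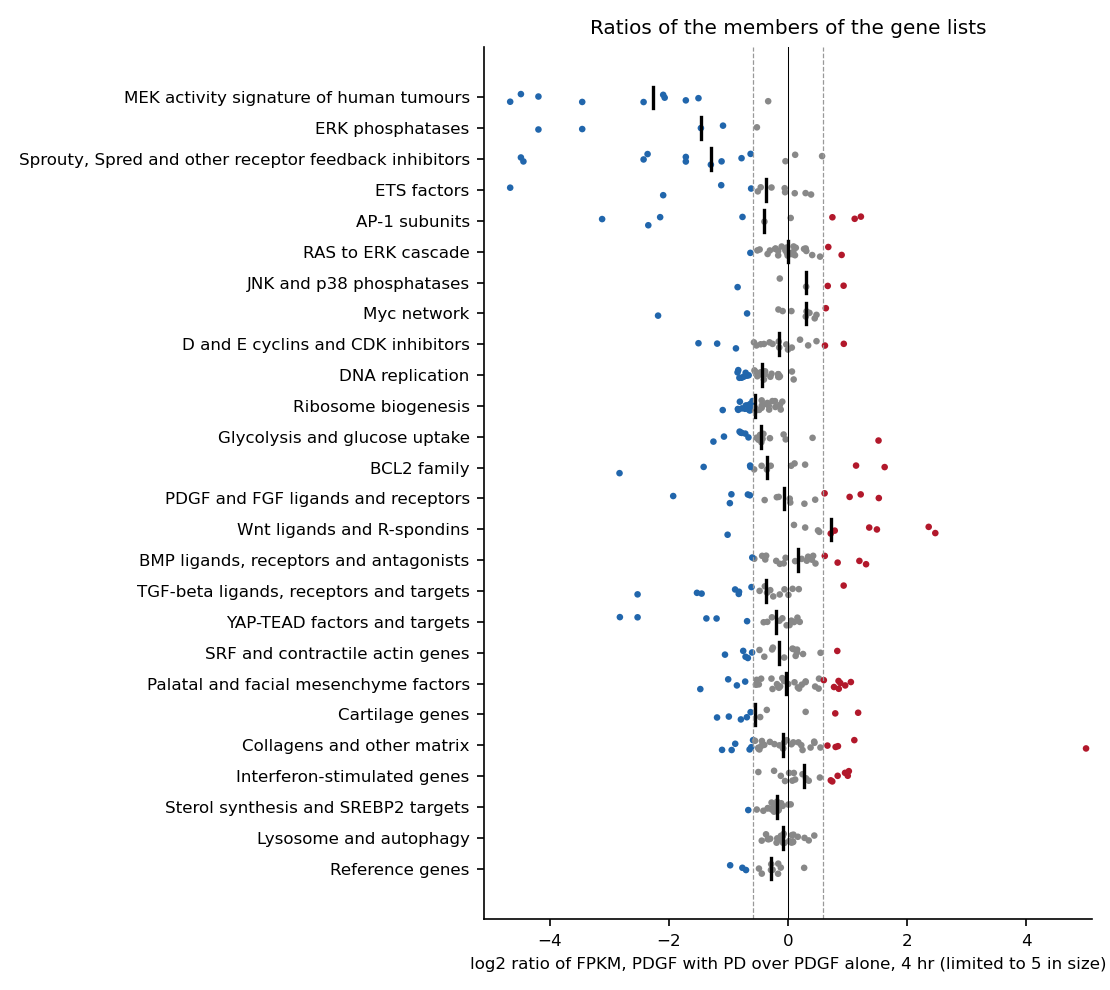
Log2 ratio of FPKM with PDGF and PD over PDGF alone for the measured members of 26 gene lists, each point 1 gene, with blue at least 1.5-fold lower, red at least 1.5-fold higher and a black bar at the median of the list. Log2 ratios are limited to 5 in size, which places *Thbs1*, in the matrix list, at 5. The human MEK signature has the lowest median, -2.26, Wnt ligands and R-spondins the highest of the lists drawn, 0.71, and all 24 genes of lysosome and autophagy lie within 1.5-fold.

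In the lists for TGF-beta, YAP and SRF, which hold ligands, receptors or factors beside targets, most genes stayed within 1.5-fold, and those past it were mainly lower. Of 18 genes of the TGF-beta list 7 were lower and 1 higher. *Ccn2*, a matricellular protein and target of both TGF-beta and YAP, was at 823 FPKM with PDGF and 143 with PD. *Inhba*, encoding the subunit of activin A, was at 187 and 64.7 FPKM. *Tgfbi*, an adhesion protein of the matrix, went the other way, from 21 to 40.1 FPKM. Of 16 YAP-TEAD genes 5 were lower and none higher, among them *Ankrd1*, at 24.5 and 9.46 FPKM, *Ccn1*, at 367 and 159.8, and the kinase gene *Nuak2*, at 5.06 and 0.714. The median of that list was nevertheless only -0.21, since 11 of its genes stayed within 1.5-fold. Among these were *Yap1*, *Wwtr1* and the TEAD factors, which are the factors themselves and not targets. Of 18 SRF and actin genes 5 were lower and 1 higher. With the tilt by level set to 0, the median of the YAP list went from -0.21 to -0.08 and that of the SRF list from -0.16 to 0.03. *Acta2*, smooth muscle actin, was at 3163 and 1876 FPKM, *Actg2* at 369 and 177, and *Myl9* at 838 and 551, while *Filip1l* was higher, at 46.8 and 82.8. *Plau* and *Plaur*, which encode urokinase and its receptor, were at 45.3 and 24.9 FPKM and at 24.8 and 13.8. *Cd44*, the hyaluronan receptor, was at 80.7 FPKM with PDGF and 32.9 with PD.

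Regulators of the palate and of skeletal tissues did not move as 1 group. Of 34 factors of palatal and facial mesenchyme 7 were higher and 4 lower, with a median log2 ratio of -0.03. *Osr1* and *Osr2*, zinc finger factors of the palatal shelf, went from 51.9 to 108 and from 3.58 to 6.43 FPKM. *Lhx8*, a LIM homeobox factor of the maxillary mesenchyme, went from 46.4 to 90.2 FPKM and *Pou3f3* from 11.9 to 21.5. *Foxd2* and *Foxc2*, forkhead factors, were lower, at 1.13 and 0.408 FPKM and at 4.64 and 2.55. Of 10 measured cartilage genes 5 were lower and 2 higher. *Sox9*, the master factor of cartilage, was at 19 FPKM with PDGF and 8.31 with PD and *Col2a1*, its collagen target, at 84.9 and 49, while *Sox6*, a partner of *Sox9*, was higher, at 1.82 and 4.12. *Col10a1*, a collagen of hypertrophic cartilage, was at 37.5 and 6.43 FPKM. Among 34 matrix genes 6 were lower and 5 higher, *Thbs1*, listed at 0 with PDGF alone, being counted as higher. *Eln*, elastin, was at 50.7 and 27.4 FPKM and *Col8a2* at 39.4 and 18.3, and *Lum* and *Dcn*, small proteoglycans, were higher, at 19.6 and 35 and at 38.3 and 60.5. *Postn* was at 579 and 1251 FPKM and is of the kind whose ligand-alone values lie apart. *Runx2*, the factor of the osteoblast lineage, was at 7.77 and 11.1 FPKM, a log2 ratio of 0.52 that did not pass. Of the 15 measured genes of its list, bone matrix included, 2 were lower and 3 higher, *Col1a1* among the latter, and *Alpl*, the alkaline phosphatase of bone-forming cells, was at 0.363 FPKM with PDGF and 1.19 with PD. Of 6 tendon genes 3 were lower: the homeobox gene *Mkx*, at 5.98 and 2.76 FPKM, the early gene *Egr1*, and *Tnc*, also in the matrix list. *Tnc*, at a log2 ratio of -0.59, just passed the limit, while *Scx* and *Tnmd*, at -0.58 and -0.56, just missed it. Of 11 retinoid genes *Crabp1*, which binds retinoic acid in the cytoplasm, was at 479 FPKM with PDGF and 197 with PD, *Rara*, a receptor, at 15.2 and 6.84, and *Dhrs3*, which turns retinal back to retinol, at 8.17 and 26.4. *Gas1* and *Cdon*, coreceptors of hedgehog, were both higher, from 18.6 to 40.7 and from 10.2 to 21.8 FPKM, and *Notch1* was lower, at 5.7 and 3.15.

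Cytokine genes moved in both directions. Of 17 cytokine and chemokine genes 5 were lower and 3 higher, with *Ccl2* at 20.8 and 6.21 FPKM and *Lif* at 8.49 and 4.94 against *Ccl20* at 3.51 and 9.06. *Tnfaip3* and *Nfkbie*, inhibitors of NF-kappaB, were at 3.38 and 0.787 FPKM and at 6.87 and 2.14. *Bcl3* and *Nfkbiz*, nuclear members of the same family of inhibitors, were higher, at 1.04 and 3.26 FPKM and at 1.91 and 4.91. Of 18 interferon-stimulated genes 6 were higher and none lower, with *Irf9* and *Stat2*, 2 parts of the factor that interferon activates, at 8.41 and 14 FPKM and at 10.1 and 16.6. The other 4 of the 6 were at or below 1.81 FPKM with PD, near the minimum. Of 20 genes of glycolysis and glucose uptake 7 were lower and 1 higher, with a median log2 ratio of -0.46 that became -0.43 with the tilt by level set to 0. *Hk2*, hexokinase, was at 6.51 and 3.79 FPKM and *Slc2a3*, a glucose transporter, at 3.91 and 1.64. *Eno2* was the higher one, at 8.09 and 23.1 FPKM. *Bhlhe40*, a repressor within the circadian clock, was at 14.3 and 3.41 FPKM, and *Per3*, a clock gene, at 1.38 and 3.62. Genes of sterol synthesis were nearly level, with 1 lower of 22 and a median of -0.18, and of 24 lysosome and autophagy genes none passed. Of 12 genes in common use as references 3 were lower, among them *Rplp0* and *Tfrc* at log2 ratios of -0.97 and -0.71, and the median was -0.29, so that ratios to a reference gene would differ from those given here.

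PD was also given with FGF, in 2 samples set beside 3 samples of FGF1 (50 ng/mL with heparin at 1 ug/mL) alone, and these 5 samples are none of those above. With FGF, 1349 of 11642 genes were lower (11.6%) and 1344 higher (11.5%). Across the 11461 genes measured in both comparisons the log2 ratios had a Pearson correlation of 0.68, which is across genes and carries no test. Of the genes lower with PDGF 55.9% were also lower with FGF, and of those lower with FGF 48.4% were also lower with PDGF. The shares for higher genes were 47.4% and 43.2%. The brakes were lower under both ligands, with a median log2 ratio over the Sprouty and Spred list of -1.30 with PDGF and -1.91 with FGF. *Etv5* fell alike, at log2 ratios of -4.66 and -4.96, while *Egr1*, an early zinc finger factor, was at -3.89 with PDGF and -7.55 with FGF. The levels show where the gap arose for *Egr1*, since with PD it was at 0.746 and 0.406 FPKM and with ligand alone at 11.1 and 76.1. The guidance gene *Sema7a*, at 1.17 FPKM with PDGF alone and 13.6 with FGF alone, and *Spp1*, osteopontin, at 25.6 and 183, gave the same picture, with 0.664 and 0.808 and with 15.6 and 19.3 FPKM under PD.

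**Figure D5:**
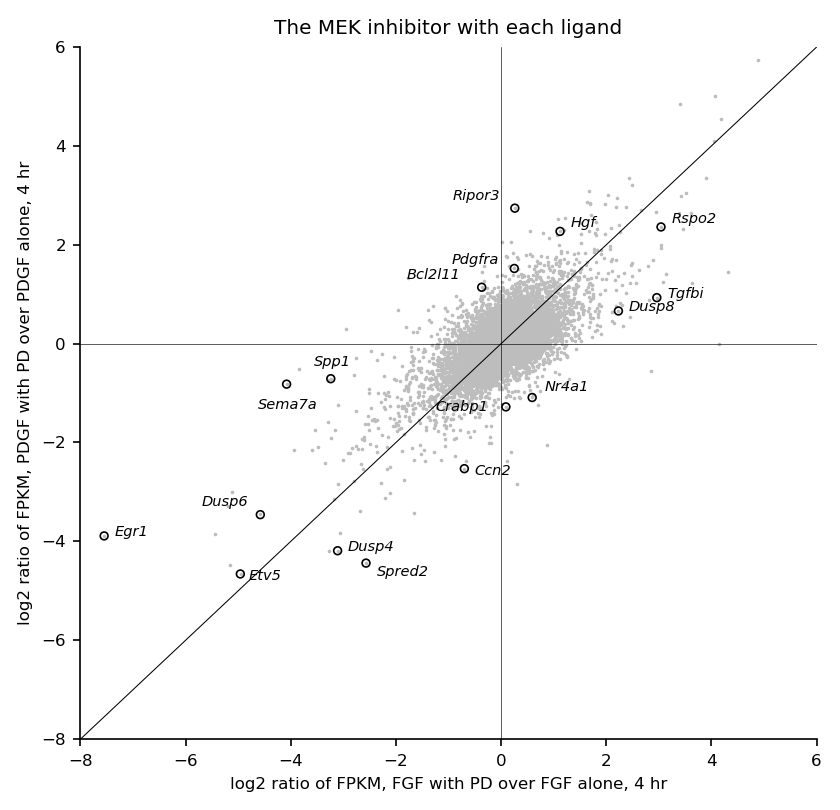
Log2 ratio of FPKM with PD over ligand alone at 4 hr, for FGF (x) and PDGF (y), each point 1 of the genes measured in both comparisons, with the diagonal of equal ratios. *Etv5* lies near the diagonal, *Egr1*, *Sema7a* and *Spp1* fell further with FGF, and *Ccn2* and *Crabp1* fell further with PDGF.

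Other genes were lower with PD under PDGF and little changed or higher under FGF. *Ccn2* had a log2 ratio of -2.53 with PDGF and -0.70 with FGF, *Cd44* at -1.29 and -0.44, and *Plau* at -0.86 and 0.52. *Crabp1* was at -1.28 and 0.09. *Nr4a1* was at -1.09 with PDGF and 0.59 with FGF and *Dusp1* at -0.85 and 0.68, both early genes. The SRF and actin list had 5 lower and 1 higher gene with PDGF, and 1 lower and 6 higher with FGF. Genes that rose further with PDGF included *Ripor3*, at a log2 ratio of 2.74 beside 0.26, *Pdgfra*, at 1.52 beside 0.25, and *Bcl2l11*, at 1.14 beside -0.37. *Hgf* was at 2.27 and 1.12. The interferon list had 6 higher genes with PDGF and none with FGF. With LY and PDGF, set against the same PDGF samples, the interferon list also had 6 higher genes, and 1 lower. The SRF and actin list then had 8 lower genes and none higher. *Rspo2*, *Wnt16*, *Artn* and *Dhrs3* rose with both, with log2 ratios of 3.04, 2.62, 3.61 and 2.89 under FGF. No test of these differences was possible. The tilt with level also differed between the ligands. In the highest decile, which holds *Ccn2* and *Crabp1*, the median log2 ratio under PD was -0.23 with PDGF and 0.02 with FGF. The part of the tilt in these differences was not tested. The middle 90% of genes differed by between -0.72 and 0.76 on the log2 scale between the ligands. Some large differences rest on 1 or a few conditions. *Ripor1* was at 487 FPKM with FGF and PD and between 17.8 and 31.1 in the other 9 conditions. *Nupl1*, among the 20 largest falls here at 124 and 23.9 FPKM, was at 386 with PDGF and LY at 1 hr and 184 at 4 hr. In the rest *Nupl1* was between 22.8 and 32.8 FPKM, so its high values were all from PDGF without PD.

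LY, at 10 uM, was given with PDGF at 4 hr in 2 samples, and the ratio of LY to PDGF alone uses the same PDGF samples as that of PD, so the values are given beside each other and no agreement is read from them. With LY, 1707 of 11738 genes were lower (14.5%) and 1155 higher (9.84%). The human MEK signature had a median log2 ratio of -2.26 with PD and -0.25 with LY, the Sprouty and Spred list -1.30 and -0.11, and Wnt ligands and R-spondins 0.71 and -0.26. For the 5 ERK phosphatases the medians were -1.46 and -0.4, and 2 of them were lower with LY. For sterol synthesis the medians were -0.18 and -1.94. The lists of growth and metabolism were also lower with LY, and by more. Their medians with PD and with LY were -0.43 and -0.71 for replication and -0.31 and -1.01 for mitosis. For ribosome biogenesis they were -0.55 and -0.76, and for glycolysis -0.46 and -0.85. The direct ratio of PD to LY leaves out the ligand-alone condition, and by it 823 of 11816 genes were lower with PD (6.97%) and 1507 higher (12.8%). Of the human signature 8 of 10 were lower with PD than with LY and none was higher, and of Wnt ligands and R-spondins 6 of 11 were higher and 1 was lower. Of the 5 ERK phosphatases 3 were lower with PD than with LY and 1, *Dusp9*, was higher. *Etv5* was at 0.492 FPKM with PD and 13.6 with LY, *Dusp6* at 0.996 and 12.1, *Spred2* at 0.621 and 11. *Rspo2* was at 97 and 13 FPKM and *Artn* at 11.2 and 0.889. Of the 22 sterol genes 21 were higher with PD than with LY. Median log2 ratios of PD to LY were 0.31 for replication, 0.72 for mitosis, 0.29 for ribosome biogenesis and 0.22 for glycolysis. Other genes had like levels under the inhibitors: *Bcl2l11* was at 7.38 and 7.4 FPKM, *Cdkn1b* at 27.3 and 29.1, *Crabp1* at 197 and 206, and *Sox9* at 8.31 and 7.92.

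Cells with PDGF and PD were also taken at 1 hr, in 2 samples, without a matching sample of PDGF alone at 1 hr among the conditions used. Between 1 and 4 hr in PD 429 of 11811 genes fell by 1.5-fold or more (3.63%) and 977 rose (8.27%), the fewest calls of the comparisons made here. Some ERK targets were as low at 1 hr as at 4 hr. *Dusp6* was at 0.891 FPKM at 1 hr and 0.996 at 4 hr, *Myc* at 6.06 and 5.85, *Phlda1* at 2.21 and 2.5, and *Zfp36l2* at 7.46 and 6.97. Others were lower at 4 hr than at 1 hr, with *Etv5* at 5.56 and 0.492, *Spred2* at 4.2 and 0.621, *Dusp4* at 2.6 and 0.34, *Hmga2* at 40.4 and 15.1 and *Ccn2* at 469 and 143. *Fosl1* was at 4.03 FPKM at 1 hr and 0.528 at 4 hr. *Atf3*, *Fosl2* and *Jun* were higher at 1 hr than at 4 hr, at 41.2, 94.5 and 94 FPKM against 16.5, 68.1 and 55.8, and *Nr4a1* was at 37.5 and 4.49. *Rspo2*, *Wnt16* and *Hgf* rose over the same time, from 53.9 to 97, from 65 to 91.6 and from 1.98 to 5.65 FPKM.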

How the data were processed

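Poly-A RNA of 22 samples in 10 conditions was sequenced. Per the submitters' notes, the authors used CASAVA, TopHat, mm10 and Cuffdiff (versions not given in the sources used here). The deposited values are FPKM, 1 per gene and condition, pooled over replicates by the authors. Another 3 columns, of another series, were not used. Without counts, neither depth nor counting error can be given.

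Of 23286 entries 22937 matched 1 gene symbol (RefSeq GRCm38.p6, GENCODE vM21). Ratios used no pseudocount and no scaling. Medians of the 62 lists (1010 genes, 7 without an entry) used log2 ratios limited to 5 in size. The genes and lists were chosen with earlier results of these data known. Named genes are the 20 largest rises and falls at FPKM of at least 5, up to 8 per list, the 10 largest differences between the ligands in either direction, and genes the paper names; not all are printed, and some are not reported here. Near-identical copies are uncertain. The code of the size rule was run on simulated data with planted changes, which checks the code and gives no error rate for the calls made here. Python 3.11.15, pandas 2.3.3 and NumPy 2.4.6 were used.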

Additional observations from a re-analysis of the deposited data

How the results depend on the processing

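Values pooled per condition limit every result: no spread is known, leaving out each replicate could not be run, and reads per gene are unknown. No paired analysis was possible because each column pools its replicates. At 2-fold, 366 genes were lower and 551 higher, and at 3-fold 127 and 183. With FPKM of at least 5, higher genes numbered 734, and with no minimum 3145. Against FGF alone as the reference 2289 were higher. At 2-fold with FPKM of at least 5 and without entries whose ligand-alone values lie apart, a setting chosen after seeing the data, 165 were lower and 177 higher. The other settings moved the counts by less than 1.5 times: a pseudocount of 0.1 gave 1104 and 1354, a pseudocount of 1 gave 880 and 956, and equal upper quartiles gave 941 and 1673. The pseudocount of 1 moved the log2 ratio of 43 of 152 genes named in the text by over 0.3, and turned the sign of none of the 152. With LY and PDGF as the reference in place of PDGF alone, 32 of the genes named in the text had a ratio of the other sign, and the cause was not tested. Their log2 ratios were then *Acta2* 0.10, *Actg2* 0.47, *Ankrd1* 0.56, *Aurka* 1.02, *Axin2* -0.04, *Bambi* 0.16, *Bax* 0.02, *Ccl2* 0.83, *Cdc20* 1.1, *Cdc6* 0.25, *Cdkn1b* -0.09, *Col2a1* 0.60, *Dcn* -0.08, *Dusp9* 1.51, *Erf* 0.21, *Foxc2* 0.05, *Hk2* 0.93, *Hmga1* 0.15, *Hras* 0.16, *Irf9* -0.26, *Lhx8* -0.20, *Lif* 0.01, *Mxd1* -0.21, *Myl9* 0.17, *Nolc1* 0.36, *Plau* 0.57, *Plaur* 1.40, *Polr1b* 0.52, *Postn* -0.48, *Rrs1* 0.27, *Sox9* 0.07 and *Tfrc* 0.09.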

Other observations

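Groups of genes chosen after their values were seen are given here as values, with no test and no explanation. Of 75 genes of cytosolic ribosomal proteins 34 were lower with PDGF and PD and 6 higher, with a median log2 ratio of -0.53, beside 13 lower and 10 higher and a median of -0.19 with FGF. Of 83 subunits of the respiratory chain and ATP synthase 33 were lower and none higher with PDGF, with a median of -0.45, beside 3 lower, 1 higher and a median of -0.13 with FGF. These are abundant transcripts, and with the median of each decile of expression set to 0 the counts with PDGF were 23 lower and 4 higher of 75, and 14 lower of 83. The part of the tilt with level, and of near-identical copies of ribosomal protein genes, in these counts was not tested. Of 271 long noncoding RNAs measured 112 were higher with PD (41.3%) and 30 lower, with a median of 0.37, against 10.9% higher among 11355 protein-coding genes. Lowly expressed entries were more often higher in this comparison as a whole, and the share of lncRNAs at matched level was not calculated.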
